A study of Homo sapiens with 6 samples.

Results

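The tumour necrosis factor (TNF) ligand and receptor superfamilies were described in A549 cells, an established human lung adenocarcinoma line, after silencing of the long noncoding RNA LINC00525. The genes taken were those whose single annotated symbol starts with TNFRSF or TNFSF, together with TNF, LTA, LTB, LTBR, FAS, FASLG, CD40, CD27 and CD70 where the table held them. This gave 39 genes (15 ligands and 24 receptors) of the 18132 genes of the table, and all 39 were tested, since no filter on low values was applied. A gene with more than 1 probe set was represented by the one with the highest mean over the 6 arrays. The groups were 3 arrays of cells in which LINC00525 had been silenced (knockdown) and 3 arrays of cells given a scrambled control (control). Titles mark both groups as "sh" and the treatment text names small interfering RNA. Both groups are cultures of the one cell line, and nothing says whether replicates came from separate cultures, so the spread between arrays may be technical. All 3 knockdown titles name LINC00525, but the genotype entries name LINC00526 for replicate 2 and LINC00527 for replicate 3.

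Ligands of the TNF family are mostly trimeric membrane proteins that act on a neighbouring cell or are cut off by proteases and act at a distance. Their receptors either carry a cytoplasmic death domain, through which FADD and caspase-8 can be recruited to start apoptosis, or bind TRAF adaptors and lead to NF-kB and MAP kinase signalling. A few receptors are decoys that bind a ligand without passing on a death signal. In airway epithelium the family is known for inflammatory signalling through TNF receptors, for the TNF-related apoptosis-inducing ligand TRAIL as a death signal for transformed cells, and for FAS.

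LINC00525 itself was lower on the knockdown arrays by 0.30 ± 0.075 log2 units (SE, limma adjusted p = 0.0372), with a signal near that of control probe sets that match no human transcript. Of those 17 Tag probe sets 1 exceeded the control mean of LINC00525. The median of their means over the 6 arrays was 2.79. Their highest mean was 4.65, and 17 of the 39 superfamily genes lay above it while 22 did not. Epithelial markers were present, with 6 of 6 above that level and an average of 9.78 to 9.85 on knockdown and 9.85 to 9.87 on control arrays. Of these 6, KRT19 rose by 0.29 ± 0.040 and KRT8 fell by 0.15 ± 0.039 (SE, limma adjusted p = 0.00409 and 0.0474), while CDH1, EPCAM, KRT7 and KRT18 did not pass; the part of this in the superfamily differences was not tested. Of the leukocyte markers, whose average was 4.12 to 4.20 on knockdown and 4.17 to 4.19 on control arrays, 3 of 12 lay above it, led by CD14 at 6.22, and PTPRC was at 2.38. Of the fibroblast and endothelial markers 1 of 8 did (average 3.52 to 3.60 on knockdown and 3.52 to 3.59 on control arrays). No leukocyte, fibroblast or endothelial marker passed the test (at an unadjusted p under 0.05, 1 leukocyte marker was lower and 2 of the others higher). In bulk samples such as these, a change in the share of cells and a change in RNA per cell cannot be told apart.

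Of the 39 superfamily genes 9 rose after the knockdown and 0 fell (2 and 21 when scaled to hybridization controls), where 5.77% of all genes rose and 6.83% fell (limma, adjusted p under 0.05 over all 18132 genes). The genes that rose were the ligands TNFSF10 and TNFSF13B, the death-domain receptors TNFRSF10B, FAS, TNFRSF21 and TNFRSF10A, and the receptors TNFRSF9, CD40 and TNFRSF12A. They made up 23.1% of the superfamily. At an unadjusted p under 0.05, 12 genes were higher and 2 lower. The median log2 difference was 0.07 over the 39 genes and -0.01 over all genes, with 28 of the 39 above 0 and 10 below. On 13 of the 39 (33.3%) every knockdown array was higher than every control array, against 12.9% of all genes, and on 0 every one was lower, against 17.9%. All of these differences are relative to the typical gene of an array. When each array was instead scaled to its bacterial hybridization controls, which were higher on knockdown arrays by 0.28 log2 units, the median of all genes moved to -0.29, the superfamily's to -0.21 and 2 of the 39, TNFSF10 and TNFRSF9, still rose (1.28% of all genes did). Under that scaling TNFRSF10A (-0.04) and TNFRSF12A (-0.0015) turned to below 0, and 83.2% of all genes and 21 of the 39 fell. The offset of an array is shared by all its genes, and every gene named had an SE of 0.096 in that fit. The p-values and counts of this scaling thus take a shared offset as separate evidence for each gene and overstate the precision.

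**Figure D1:**
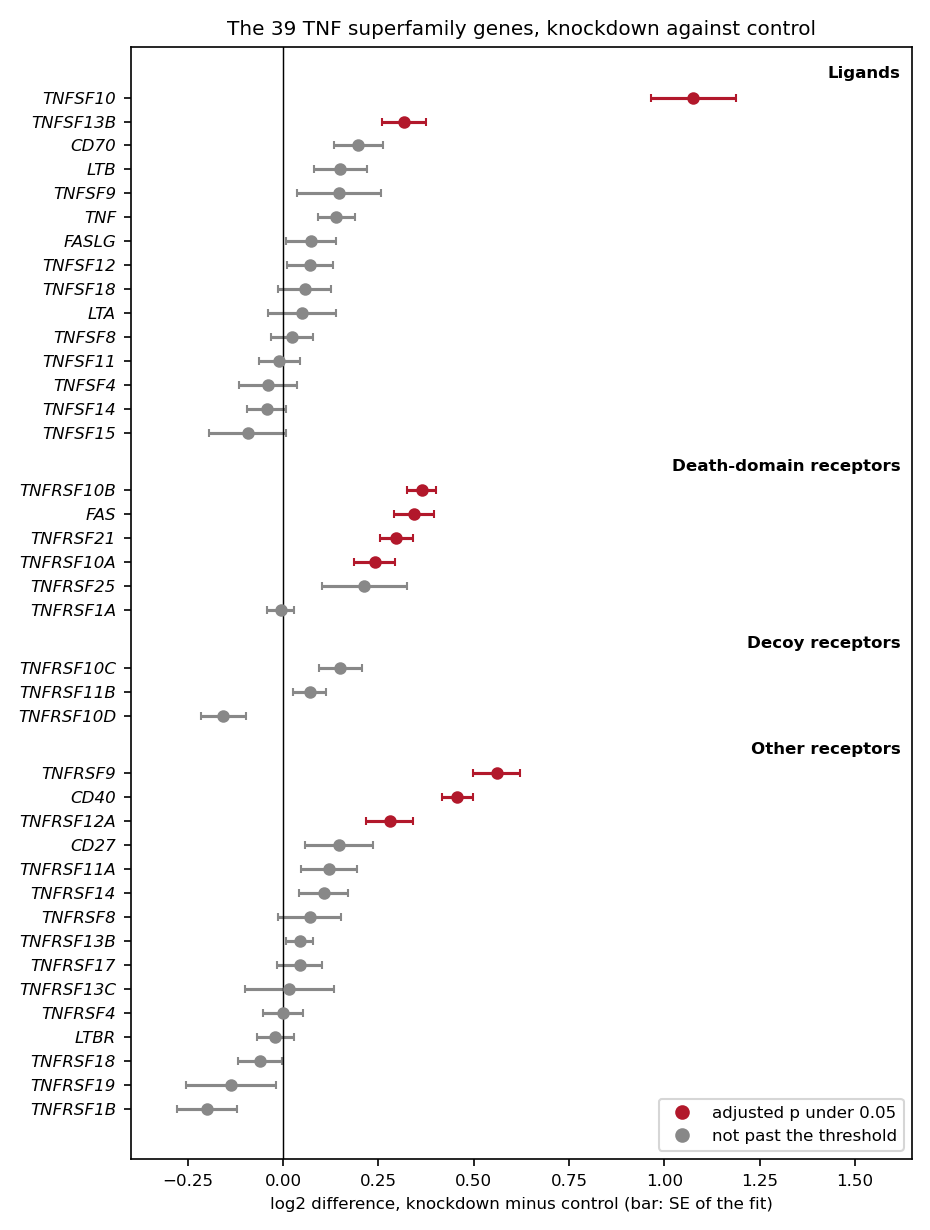
Log2 difference of signal (horizontal axis, knockdown minus control) for the 39 superfamily genes by role, with red points past an adjusted p of 0.05, grey points not, and bars for the standard error of the fit. TNFSF10 stands farthest to the right at 1.08, and the 9 red points all lie above 0; scaled to hybridization controls, TNFRSF10A and TNFRSF12A lie below 0.

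Among the ligands, TNFSF10, which encodes TRAIL, showed the largest difference of the superfamily. Its log2 signal was 5.22, 4.84 and 4.92 on the knockdown arrays, against 3.75, 3.94 and 4.06 on the control arrays. Every knockdown array was thus higher than every control array, by at least the gap from 4.84 to 4.06. The mean was 4.99 ± 0.20 on knockdown and 3.92 ± 0.16 on control arrays (SD, n = 3 each), a 2.11-fold rise (log2 1.08 ± 0.11 SE, limma adjusted p = 0.00117). The other TNFSF10 probe sets rose as well, by 0.77 ± 0.079 and 0.75 ± 0.13 (limma adjusted p = 0.00106 and 0.0105 in a fit over all probe sets with 1 symbol). The control signal was low (1 Tag probe set of 17 exceeded it), so the ratio can include background. TNFSF10 passed the test in the alternative settings with more than 1 array per group, and was at 0.80 to 1.30 over all 17. Dropping _s_at and _x_at probe sets and updating symbols left its difference at 1.08.

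The promoter of TNFSF10 is shown because this gene moved most and its window holds a match to the core of the interferon-stimulated response element, the motif bound by the interferon-activated complex of STAT and IRF factors. The stretch covers the 250 bases before the transcription start (RefSeq, GRCh38.p14, minus strand, chr3:172523431-172523680), written 5′ to 3′ with the match in capitals.
TNFSF10: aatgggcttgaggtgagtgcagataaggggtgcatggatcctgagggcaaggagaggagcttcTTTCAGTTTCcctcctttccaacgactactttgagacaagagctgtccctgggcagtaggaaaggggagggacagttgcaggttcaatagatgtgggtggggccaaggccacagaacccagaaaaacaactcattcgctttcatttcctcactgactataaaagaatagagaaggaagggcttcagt
The motif was searched on both strands as GAAA, any 2 bases and GAAA again, in windows of 250 bases before to 50 after the start. It was found in 3.65% of 27305 such windows. Windows were at hand for 26 of the 39 superfamily genes, 5 of them among the 9 that rose. CD40, TNFRSF10A, TNFRSF10B and TNFRSF12A had none, so no motif was searched there. Of the 26 windows 6 held this motif (TNFSF10, TNFSF13B, TNFSF9, FASLG, TNFSF14 and TNFRSF1B). The first 2 of these rose, and the other 4 did not pass. In TNFSF10 the match reads on the opposite strand and starts 187 bases before the transcription start.

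TNFSF13B encodes BAFF, the survival factor of B cells. Its log2 signal was 3.0, 2.96 and 3.0 on knockdown arrays, against 2.77, 2.55 and 2.69 on control arrays. The groups did not overlap, but all 6 values lay near background: 10 Tag probe sets of 17 exceeded the control mean. The difference was 0.32 ± 0.058 (SE, limma adjusted p = 0.0134). A second probe set gave 0.21 ± 0.062 and did not pass (adjusted p = 0.0726), and scaled to hybridization controls TNFSF13B was at 0.04 (adjusted p = 0.723). The BAFF receptors TNFRSF13B, TNFRSF13C and TNFRSF17 differed by 0.04, 0.02 and 0.04, none past the threshold. One of the 4 TNFRSF13B probe sets, with a mean of 3.61, rose by 0.29 ± 0.063 (limma adjusted p = 0.0252), while the others were at 0.04 or less. In the TNFSF13B window the match GAAAGTGAAA to the interferon motif lies 19 bases after the transcription start.

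The remaining 13 ligands did not pass. CD70, the ligand of the T-cell receptor CD27, came closest. It was at 8.82, 8.94 and 8.80 on knockdown arrays, against 8.60, 8.78 and 8.59 on control arrays, a difference of 0.20 ± 0.064 (SE, limma adjusted p = 0.0919). The knockdown values were all above the control values, by as little as 8.80 against 8.78. With control replicate 2 left out, CD70 passed at 0.26 (limma adjusted p = 0.0497), and with the trend and robust options of the moderation it passed at the same difference (limma adjusted p = 0.00963). It passed in 3 of the 17 alternative settings. A second, dimmer CD70 probe set differed by 0.03 (limma adjusted p = 0.888 over all probe sets), and with both averaged CD70 was at 0.12 (limma adjusted p = 0.408).

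LTB encodes lymphotoxin beta, the membrane anchor of the heterotrimer that engages LTBR, and its probe sets disagreed. The brighter one was at 7.32, 7.13 and 7.13 on knockdown arrays, against 7.06, 7.13 and 6.94 on control arrays, so that the groups touched and the difference of 0.15 ± 0.070 did not pass (limma adjusted p = 0.219). The dimmer one was at 6.37, 6.34 and 6.39 on knockdown arrays, against 5.58, 5.82 and 5.86 on control arrays. There the groups lay far apart, and the signal rose by 0.61 ± 0.073 (limma adjusted p = 0.00215 over all probe sets). With both averaged, LTB rose by 0.38 (limma adjusted p = 0.00205). Its receptor LTBR was at 8.31, 8.26 and 8.39 on knockdown arrays and 8.35, 8.38 and 8.29 on control arrays, a difference of -0.02 with a 95% interval of -0.13 to 0.09. LTA, the soluble lymphotoxin, differed by 0.05 (95% interval -0.16 to 0.26). TNFSF4, TNFSF8, TNFSF11, TNFSF14 and TNFSF18, ligands best known from lymphocytes and bone, had means of 2.49 to 4.20 and differed by -0.04 to 0.06.

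TNF, the founding cytokine of the family, had a signal near background. It was at 3.27, 3.22 and 3.35 on knockdown arrays, against 3.20, 3.09 and 3.13 on control arrays, and 5 Tag probe sets of 17 exceeded the control mean. The groups did not overlap, yet the difference of 0.14 ± 0.049 did not pass (limma adjusted p = 0.114). TNFRSF1A, the widely expressed TNF receptor with a death domain, was at 9.83, 9.83 and 9.86 on knockdown arrays and 9.86, 9.83 and 9.85 on control arrays. Its difference was -0.01, with a 95% interval of -0.09 to 0.08, and its other probe sets gave -0.01 to 0.05. TNFRSF1B, the TNF receptor without a death domain, was at 4.08, 4.15 and 4.18 on knockdown arrays and 4.40, 4.46 and 4.15 on control arrays. Control replicate 3 fell among the knockdown values, and the difference of -0.20 ± 0.079 did not pass (limma adjusted p = 0.155). Without that array TNFRSF1B fell by 0.29 (limma adjusted p = 0.0237). Its other probe sets gave 0.06 and -0.08.

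**Figure D2:**
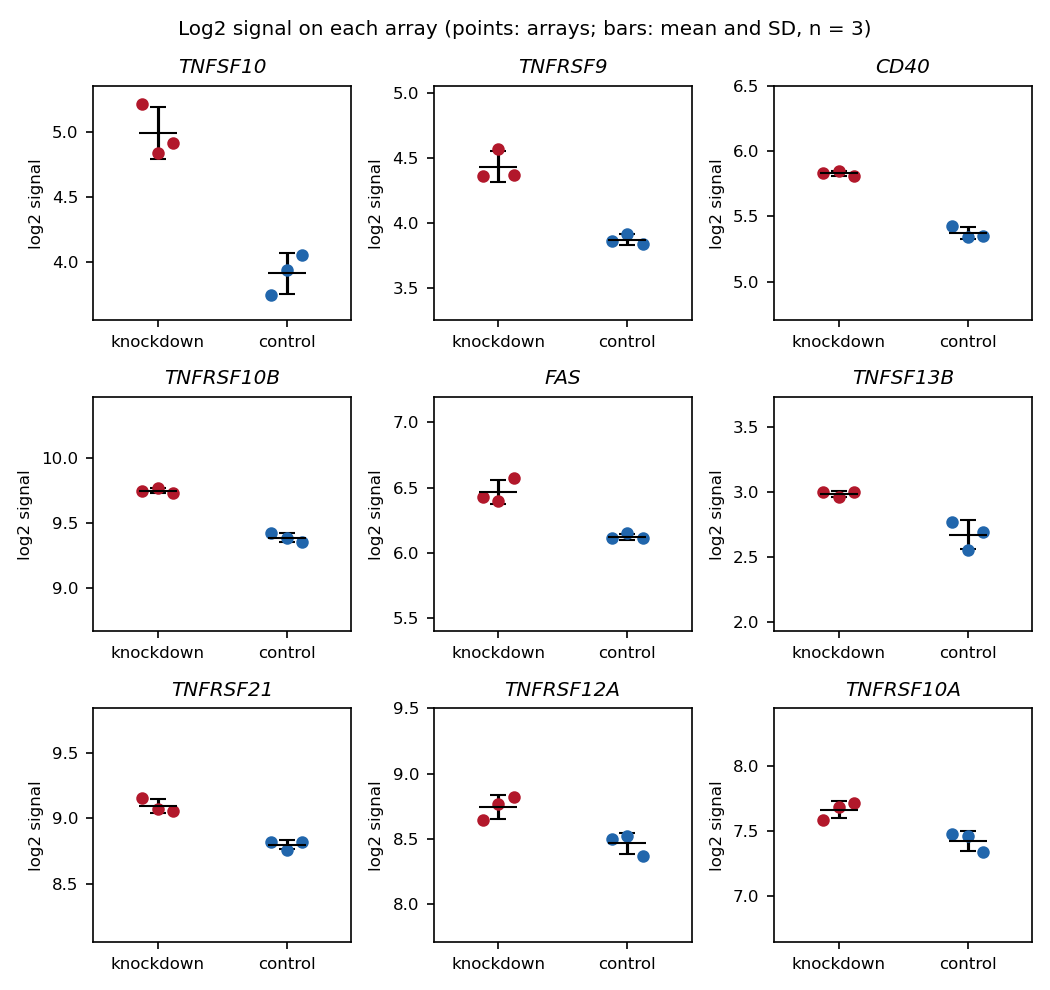
Log2 signal (vertical axis, a span of equal length in each panel) of the 9 superfamily genes that rose, on the 3 knockdown arrays (red) and the 3 control arrays (blue), with the mean and SD as bars. In each panel the knockdown points lie above the control points, widest apart for TNFSF10; scaled to hybridization controls, the group means of TNFRSF10A and TNFRSF12A lie the other way.

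Both TRAIL receptors that signal death rose, as did their ligand (scaled to hybridization controls, TNFRSF10A was at -0.04). TNFRSF10B had a log2 signal of 9.74, 9.77 and 9.73 on knockdown arrays, against 9.42, 9.38 and 9.35 on control arrays. Arrays of 1 group lay close together, and the rise was 1.29-fold (log2 0.36 ± 0.038 SE, limma adjusted p = 0.00121). Its other probe sets rose by 0.31 ± 0.063 and 0.25 ± 0.058 (limma adjusted p = 0.0201 and 0.0336 among all probe sets). The probe set that stands for the gene is of the _x_at type, whose probes may cross-hybridize to similar sequences, while these are not. Its difference was 0.08 when scaled to hybridization controls, and the call was lost (adjusted p = 0.407). TNFRSF10A was at 7.59, 7.69 and 7.72 on knockdown arrays, against 7.48, 7.46 and 7.34 on control arrays. This gave a 1.18-fold rise (log2 0.24 ± 0.054 SE, limma adjusted p = 0.0278) that did not pass when any array but knockdown replicate 1 was left out (limma adjusted p of 0.0513 to 0.0899).

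The TRAIL decoy receptors did not pass in the deposited scaling. TNFRSF10D, whose death domain is truncated, was at 6.87, 7.0 and 7.07 on knockdown arrays and 7.07, 7.19 and 7.15 on control arrays. Knockdown replicate 3 equalled control replicate 1, and the difference was -0.16 ± 0.060 (limma adjusted p = 0.141), with -0.13 at the second probe set. When scaled to hybridization or poly-A controls, TNFRSF10D was at -0.44 and -0.28 (limma adjusted p = 4.54e-05 and 0.00967). These p-values overstate the precision, since the offset of each array is shared by all genes. TNFRSF10C, which has no cytoplasmic part, was near background at 4.63, 4.75 and 4.64 on knockdown arrays and 4.60, 4.54 and 4.43 on control arrays (difference 0.15, limma adjusted p = 0.137). Its other probe sets were at -0.06 and -0.01, and 2 annotated to both TNFRSF10C and LOC254896 at 0.02 and -0.01. TNFRSF11B, the RANK ligand decoy osteoprotegerin, which also binds TRAIL, differed by 0.07 at a mean of 2.86. Differences taken within an array are unchanged by an offset shared by all its genes, as in the scalings to control probe sets. They can change under a normalization that depends on signal. Their size says nothing of which gene is more abundant, since probe sets bind with different strength, so it is compared between groups only. TNFRSF10B minus TNFRSF10D was 2.87, 2.77 and 2.66 on knockdown arrays, against 2.35, 2.19 and 2.20 on control arrays, so the gap between these receptors widened by 0.52 log2 units. TNFRSF10A minus TNFRSF10D was 0.72, 0.69 and 0.65 on knockdown arrays, against 0.41, 0.27 and 0.19 on control arrays, a widening by 0.40. For both pairs the groups did not overlap and the 2-sided exact permutation p was 0.1, the smallest that 3 arrays against 3 can give. The gap of TNFRSF10B to the brightest TNFRSF10C probe set widened by 0.21 (exact permutation p = 0.1) and that to TNFRSF10A by 0.12 (exact permutation p = 0.2). Adjusted over these 4 pairs, which were chosen after their values were seen, the exact permutation p-values were 0.133, 0.133, 0.133 and 0.2.

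FAS, the death receptor of the FAS ligand and a known p53 target, was at 6.43, 6.40 and 6.57 on knockdown arrays, against 6.11, 6.15 and 6.11 on control arrays. The groups were clearly separated, and the rise was 1.27-fold (log2 0.34 ± 0.052 SE, limma adjusted p = 0.00595). A second FAS probe set gave 0.20 ± 0.063 and did not pass (limma adjusted p = 0.0847 over all probe sets). Scaled to hybridization controls the difference was 0.06 (adjusted p = 0.532). FASLG, its ligand, was at 4.17, 4.04 and 3.92 on knockdown arrays and 3.99, 4.0 and 3.92 on control arrays, with overlapping groups and a difference of 0.07 (95% interval -0.08 to 0.22). TNFRSF21, an orphan-type death receptor also called death receptor 6, was at 9.16, 9.07 and 9.06 on knockdown arrays, against 8.82, 8.76 and 8.82 on control arrays. It rose 1.23-fold (log2 0.30 ± 0.043 SE, limma adjusted p = 0.00529). Its other probe sets rose by 0.38 and 0.28. Scaled to hybridization controls the difference was 0.02 (adjusted p = 0.879). TNFRSF25, the receptor of TNFSF15, differed by 0.21 ± 0.11 at a mean of 4.11 and did not pass, and TNFSF15 differed by -0.09.

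The FAS promoter window held 1 of the motifs searched, TGANTCA, near its far end. This is a looser form of the AP-1 site bound by FOS and JUN dimers, which has C or G as its middle base. The FAS match reads TGAATCA, with A there, and so is not the AP-1 site in full. With any middle base allowed, matches were found in 7.76% of all windows and in 6 of the 26 superfamily windows. The CD27 match also reads TGAATCA, and the other superfamily matches read TGAGTCA. The 250 bases before the FAS start are shown with the match in capitals (RefSeq, GRCh38.p14, plus strand, chr10:88990548-88990797).
FAS: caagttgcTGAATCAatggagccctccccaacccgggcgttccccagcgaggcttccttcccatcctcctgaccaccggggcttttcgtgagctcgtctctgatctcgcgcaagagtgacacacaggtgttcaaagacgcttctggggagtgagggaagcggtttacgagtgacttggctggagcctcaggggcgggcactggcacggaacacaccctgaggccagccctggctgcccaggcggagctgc
The match starts 242 bases before the transcription start. TNFRSF21 also had a window, and it held none of the 4 motifs.

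Among receptors that signal through TRAF adaptors, TNFRSF9 had the largest difference. It encodes CD137, a costimulatory receptor best known on activated T cells. Its log2 signal was 4.36, 4.57 and 4.37 on knockdown arrays, against 3.86, 3.92 and 3.84 on control arrays. The groups did not overlap, and the rise was 1.47-fold (log2 0.56 ± 0.062 SE, limma adjusted p = 0.00165), from a single probe set and 1 Tag probe set of 17 exceeded its control mean. TNFRSF9 passed in the alternative settings with more than 1 array per group, and was at 0.28 to 0.60 over all 17. Averaging or dropping probe sets and updating symbols could not move its difference, which stayed at 0.56. The ligand of TNFRSF9, TNFSF9, was at 7.37, 7.68 and 7.41 on knockdown arrays and 7.30, 7.54 and 7.18 on control arrays, with overlapping groups and a difference of 0.15 ± 0.11 (limma adjusted p = 0.457).

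The TNFRSF9 window is shown because it held 3 of the 4 motifs searched, more than any other superfamily window. From the far end these are a gamma-activated site (TTCNNNGAA, bound by STAT dimers), a kappa B site (GGG, any 2 bases and TTTCC, on both strands, bound by NF-kB) and an AP-1 site. The stretch is the 250 bases before the start (RefSeq, GRCh38.p14, minus strand, chr1:7940840-7941089), with the matches in capitals.
TNFRSF9: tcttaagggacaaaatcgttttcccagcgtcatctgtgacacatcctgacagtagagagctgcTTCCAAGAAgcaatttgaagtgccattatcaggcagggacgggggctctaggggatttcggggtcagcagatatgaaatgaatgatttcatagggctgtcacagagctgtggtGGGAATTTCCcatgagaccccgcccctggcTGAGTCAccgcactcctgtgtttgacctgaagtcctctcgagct
The kappa B match GGGAATTTCC starts 74 bases and the AP-1 match 44 bases before the transcription start. Kappa B matches were found in 1.92% of all windows and in 2 of the 26, those of TNFRSF9 and LTB. The gamma-activated site was found in 7.88% of all windows and in 4 of the 26 (LTB, LTA, TNFSF11 and TNFRSF9). A match describes letters in the window and was not tested as a binding site.

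CD40, a receptor that activates NF-kB in B cells, dendritic cells and epithelium, had the smallest p of the superfamily. It was at 5.83, 5.85 and 5.81 on knockdown arrays, against 5.43, 5.34 and 5.35 on control arrays. Arrays of a group were close together, and the rise was 1.37-fold (log2 0.46 ± 0.040 SE, limma adjusted p = 0.000534). A dimmer probe set gave 0.24 ± 0.070 and did not pass (limma adjusted p = 0.0701 over all probe sets). Scaled to hybridization controls CD40 was at 0.18 (adjusted p = 0.0769). The CD40 ligand is not analysed here.

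TNFRSF12A, or Fn14, is the receptor of TWEAK, a ligand linked to tissue repair. It was at 8.64, 8.77 and 8.82 on knockdown arrays, against 8.50, 8.52 and 8.37 on control arrays. The groups did not overlap, and the rise was 1.21-fold (log2 0.28 ± 0.062 SE, limma adjusted p = 0.0252). It did not pass when any array but knockdown replicate 1 was left out (limma adjusted p of 0.0568 to 0.0835). TNFSF12, which encodes TWEAK, was at 5.27, 5.30 and 5.11 on knockdown arrays and 5.14, 5.23 and 5.10 on control arrays, with overlapping groups and a difference of 0.07 (95% interval -0.07 to 0.21).

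The other 12 receptors of this class did not pass. TNFRSF14, the herpesvirus entry mediator and receptor of TNFSF14, differed by 0.11 ± 0.065 at its brightest probe set, and its other 6 probe sets gave -0.05 to 0.16. TNFRSF19 was at 5.06, 4.75 and 4.73 on knockdown arrays and 4.76, 5.05 and 5.14 on control arrays, with a difference of -0.14 ± 0.12. Knockdown replicate 1 was as high as the controls there. CD27, TNFRSF4, TNFRSF8, TNFRSF11A and TNFRSF18, costimulatory or bone-related receptors, had means of 3.79 to 4.52 and differed by -0.06 to 0.15. Of the 22 superfamily genes at or below the highest Tag probe set, 3 rose (TNFSF10, TNFRSF9 and TNFSF13B), and their median difference was 0.06. Of the 17 above it 6 rose, with a median of 0.15. Among all genes, whatever their signal, 5.77% rose. The share of all genes at each signal level was not taken, so these counts are not compared with each other.

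**Figure D3:**
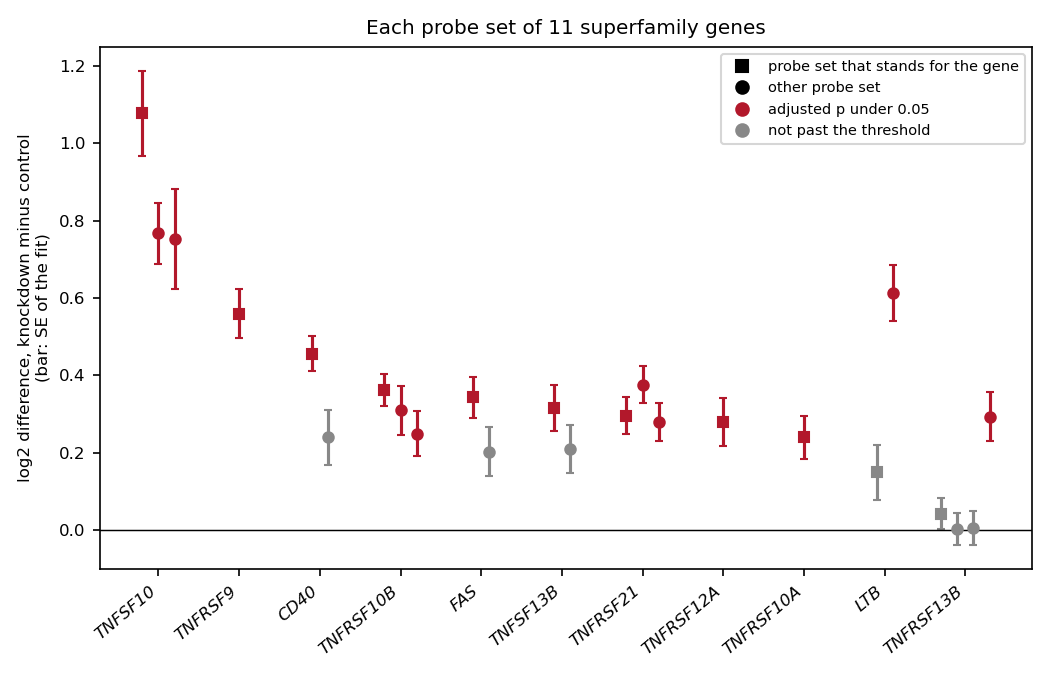
Log2 difference (vertical axis, knockdown minus control, bars for the standard error) of each probe set of the 9 genes that rose and of LTB and TNFRSF13B, with squares for the probe set that stands for the gene and red for an adjusted p under 0.05 over all probe sets. All probe sets of TNFSF10, TNFRSF10B and TNFRSF21 are red, while those of CD40, FAS, TNFSF13B, LTB and TNFRSF13B are split.

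At the level of probe sets, 17 of the 81 probe sets of the superfamily rose and 0 fell, where 4.76% of all 44994 probe sets with 1 symbol rose and 5.33% fell. These belonged to the 9 genes named and to LTB and TNFRSF13B.

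Genes that release the ligands or carry the receptor signal were taken from lists and tested in the same fit. Of 8 shedding genes 3 rose and 1 fell, against 5.77% and 6.83% of all genes, with a median difference of 0.12. ADAM17, the protease that cuts TNF and TNF receptors off the membrane, rose by 0.25 ± 0.048 (SE, limma adjusted p = 0.0163). RHBDF2 and RHBDF1, the inactive rhomboid partners of ADAM17, rose by 0.20 ± 0.039 and 0.19 ± 0.044, calls that were lost with the probe sets of each gene averaged (0.11 and 0.03, limma adjusted p = 0.0945 and 0.666). SPPL2A, an intramembrane protease that cuts the TNF stub, fell by 0.16 ± 0.036 (limma adjusted p = 0.0284), a call lost when any of the 6 arrays was left out (limma adjusted p of 0.0613 to 0.0936). Leaving out 1 array lost the call for ADAM17 (control replicate 2 or knockdown replicate 2), RHBDF2 (any control array or knockdown replicate 3) and RHBDF1 (any but control replicate 1). Scaled to hybridization controls ADAM17, RHBDF2 and RHBDF1 turned to -0.03, -0.08 and -0.09.

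Of 11 measured receptor adaptors 2 rose and 0 fell, against 5.77% and 6.83% of all genes, with a median difference of 0.08. CFLAR, the inhibitor of caspase-8 at death receptors, was at 8.72, 8.74 and 8.74 on knockdown arrays, against 8.31, 8.27 and 8.29 on control arrays, a 1.36-fold rise (log2 0.44 ± 0.035 SE, limma adjusted p = 0.000305). Averaged over its 9 probe sets, CFLAR rose by 0.27 (limma adjusted p = 0.00185). BIRC2, the ubiquitin ligase cIAP1 of TNF receptor complexes, rose by 0.31 ± 0.048 (limma adjusted p = 0.00644). Scaled to hybridization controls both calls were lost, with CFLAR at 0.16 and BIRC2 at 0.03 (limma adjusted p = 0.102 and 0.774). None of FADD (-0.05), CASP8 (-0.08), CASP10 (-0.03) and TRADD (0.08), which build death-receptor complexes, passed. TRAF1, an adaptor of TNF receptors, was at 4.47, 4.74 and 4.22 on knockdown arrays, against 4.08, 4.20 and 4.09 on control arrays, and did not pass (limma adjusted p = 0.0957). RIPK1, TRAF2 and BIRC3 are not analysed here.

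Of 18 downstream kinase and ubiquitin genes 6 rose and 0 fell, against 5.77% and 6.83% of all genes, with a median difference of 0.04. The largest was TNFAIP3, the ubiquitin-editing enzyme A20 that restrains TNF receptor signalling, at 7.25, 7.26 and 7.30 on knockdown arrays, against 6.30, 6.46 and 6.47 on control arrays (1.82-fold, log2 0.86 ± 0.053 SE, limma adjusted p = 8.88e-05). RNF31, the catalytic subunit of the linear ubiquitin ligase, rose by 0.55 ± 0.055. TNIP1, a partner of A20, rose by 0.52 ± 0.056, and CYLD, a deubiquitinase of the same pathway, by 0.44 ± 0.064. With the probe sets of each gene averaged, TNFAIP3, TNIP1 and CYLD still passed, at 0.89, 0.49 and 0.25. MLKL, the pore-forming effector of necroptosis, rose by 0.23 ± 0.037. RBCK1, another linear ubiquitin ligase subunit, rose by 0.20 ± 0.046, a call lost when any array but control replicate 2 was left out (limma adjusted p of 0.0652 to 0.0936). When scaled to hybridization controls MLKL and RBCK1 turned to -0.05 and -0.08 and CYLD was at 0.16 with its call lost (limma adjusted p = 0.116), while TNFAIP3, RNF31 and TNIP1 passed at 0.58, 0.27 and 0.24. Without variance moderation the calls of CYLD and RBCK1 were lost as well (limma adjusted p = 0.0535 and 0.0815). That setting also lost the calls of ADAM17, RHBDF1, TNFSF13B, TNFRSF10A and TNFRSF12A. Of 7 apoptosis effectors 0 rose and 0 fell (limma, against 5.77% and 6.83% of all genes), with differences of -0.10 for APAF1 to 0.14 for XIAP. Of 5 relatives of the superfamily outside the naming rule (EDA, EDAR, EDA2R, NGFR and RELT) 0 passed either way, at -0.03 to 0.09. At an unadjusted p under 0.05 1 effector was higher and 0 lower, and 0 relatives passed.

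**Figure D4:**
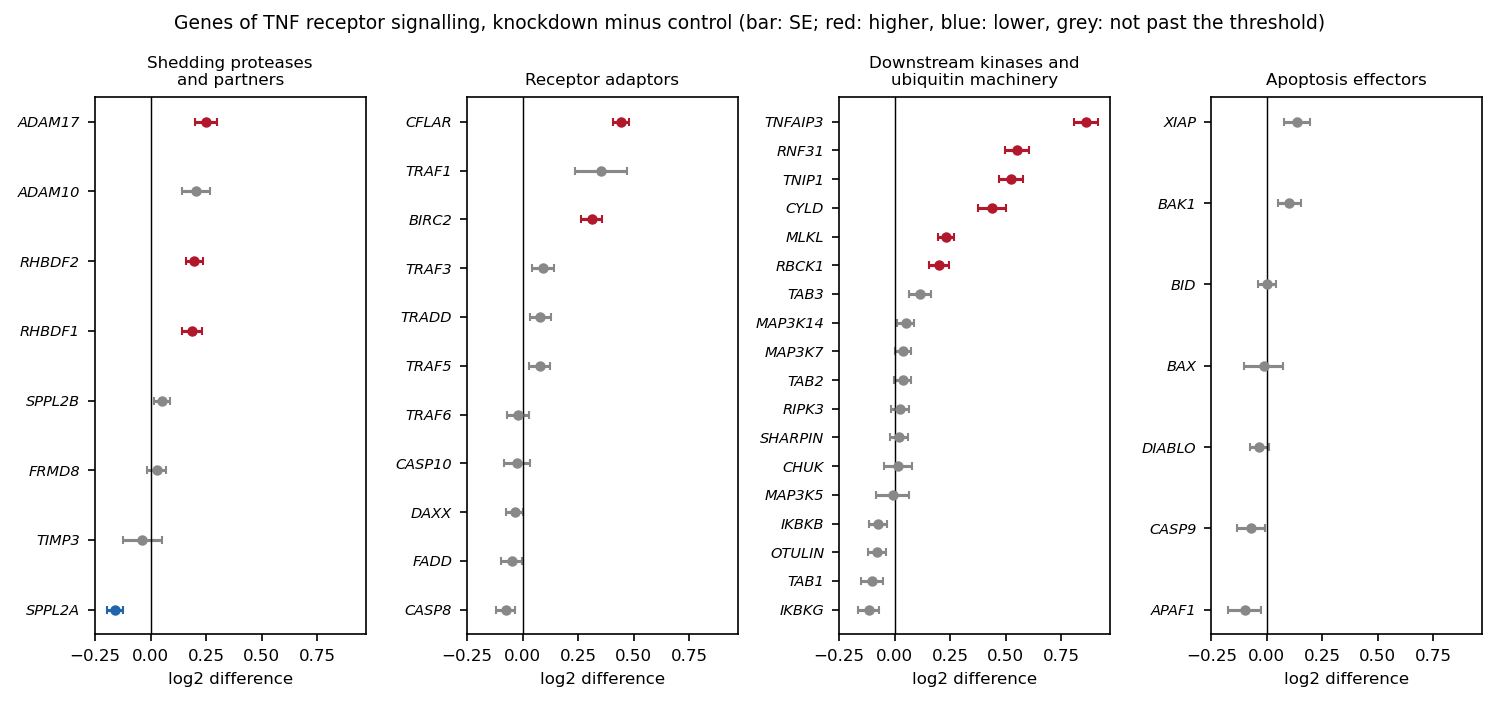
Log2 difference (horizontal axis, knockdown minus control, bars for the standard error) of the measured genes of ligand shedding, receptor adaptors, downstream signalling and apoptosis, with red for higher, blue for lower and grey for not past an adjusted p of 0.05. TNFAIP3 lies farthest right at 0.86 and SPPL2A is the 1 blue point; scaled to hybridization controls, ADAM17, RHBDF1, RHBDF2, MLKL and RBCK1 lie below 0.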

How the data were processed

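RNA of 6 samples was measured on one-colour arrays with biotin-labelled cRNA, per the labels' protocols. The values deposited by the authors are on a log2 scale, 1 for each of 49372 probe sets, made with RMA per the submitters' processing notes (version not given in the sources used here). Array medians were 5.10 to 5.11, so the values were not normalized again. No scanner files or detection calls were used, and the number of arrays limits the precision.

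Probe sets with 1 symbol (44994) were reduced to 18132 genes. Groups were compared with limma 3.58.1, run in R 4.3.3 with lmFit, eBayes and no covariate (2-sided), with Benjamini-Hochberg adjustment over all genes or, for probe sets, over all 44994. SD is over 3 arrays, SE is from the fit. The pipeline was tested on simulated data. The members, lists, naming rule (all genes past the threshold, those above the highest Tag probe set, and their ligands or receptors) and alternatives were chosen with earlier results of these data known. Named as well, after values were seen, were the other low-signal genes. Promoter windows are RefSeq's. Same-numbered arrays did not deviate together (correlations of deviations 0.092, 0.058 and -0.0095), so numbers were not taken to pair samples. Figures were drawn with matplotlib 3.10.9.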

Additional observations from a re-analysis of the deposited data

How the results depend on the processing

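The 9 rises and 0 falls of the superfamily gave 6 to 10 rises and 0 falls under averaged probe sets (10), probe sets without _s_at and _x_at suffixes (9), a filter at the median Tag probe set (9), cyclic loess (9), trend and robust moderation (10), no moderation (6), updated symbols (9) and the replicate block (8, with CD70 added at an adjusted p of 0.0437 and TNFRSF10A and TNFRSF12A lost). Of all genes, 5.99%, 5.29%, 6.53%, 7.11%, 8.01%, 3.37%, 5.77% and 4.51% rose in these settings, in the same order. Leaving out 1 array gave 7 to 9 rises and 0 to 1 falls, the fall being TNFRSF1B. Without knockdown replicates 2 and 3, whose genotype fields name other transcripts (an alternative added after seeing the data, in which the lone knockdown array is assumed to vary like the controls), 3 rose, TNFSF10, TNFRSF9 and CD40, where 1.11% of all genes did. Over all genes the replicate block left 818 rises and 747 falls of 1046 and 1239, and leaving out 1 array 632 to 834 and 472 to 792. Trend and robust moderation gave 1453 and 2049, no moderation 611 and 703, and cyclic loess 1290 and 909, with more rises than falls. Scaling to poly-A controls gave 7 rises and 4 falls among the 39 (2.88% and 38.7% of all genes), and scaling to hybridization controls 2 and 21 (1.28% and 83.2%). These scalings lower every gene by the same 0.13 and 0.28 log2 units, to medians over all genes of -0.14 and -0.29, so the direction of small differences depends on them. The counts and p-values of both scalings take an offset shared by all genes as separate evidence for each, and overstate the precision.

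These values changed sign. Scaled to hybridization controls, CD70 was at -0.085, LTA -0.23, LTB -0.13, TNFRSF10A -0.041, TNFRSF12A -0.0015, TNFRSF13B -0.24, TNFRSF14 -0.17, TNFSF12 -0.21, TNFSF9 -0.13, TNF -0.14, FASLG -0.21, TNFRSF10C -0.13, TNFRSF13C -0.26, TNFRSF17 -0.24, ADAM17 -0.031, MLKL -0.051, RBCK1 -0.081, RHBDF1 -0.095 and RHBDF2 -0.085. Scaled to poly-A controls, LTA was at -0.076, TNFRSF13B -0.083, TNFRSF14 -0.020, TNFSF12 -0.056, FASLG -0.053, TNFRSF13C -0.11 and TNFRSF17 -0.083. TNFRSF1A was at 0.010 with averaged probe sets, 0.047 without _s_at and _x_at probe sets and 0.023 after cyclic loess, TNFRSF1B at 0.060 without those probe sets and LTBR at 0.012 after cyclic loess. On leaving out 1 array, LTA ranged from -0.0083 to 0.14, LTBR from -0.055 to 0.010, TNFRSF13C from -0.067 to 0.14 and TNFRSF17 from -0.0067 to 0.085. TNFRSF19 was at 0.077 without knockdown replicates 2 and 3. Beyond the scaling, the cause was not tested.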

Other observations

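Some probe sets carry several symbols, 1 of them a superfamily name, and lie outside the rule. For TNFSF13, the ligand APRIL, which shares its probe sets with the TNFSF12-TNFSF13 read-through transcript, the brighter probe set was at 5.91, 5.82 and 5.80 on knockdown arrays and 5.85, 5.87 and 5.80 on control arrays. For TNFRSF6B, a decoy receptor of the FAS ligand that shares its probe sets with RTEL1-TNFRSF6B, one was at 5.48, 5.42 and 5.34 on knockdown arrays and 5.47, 5.39 and 5.45 on control arrays, and the other at 5.27, 5.34 and 5.22 on knockdown arrays and 5.35, 5.32 and 5.28 on control arrays. The groups overlapped in each of these probe sets.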
